A study of Mus musculus with 8 samples.

Results

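The 10 genes described here encode a glucose carrier and 9 enzymes of glycolysis, from the uptake of glucose to lactate: Slc2a1, Hk1, Hk2, Gpi1, Pfkl, Aldoa, Pgk1, Pgam1, Eno1 and Ldha. They were chosen by name, with earlier results of these data known, from the 24015 genes of the count table. All 10 were among the 13908 genes whose counts were high enough to test. RNA-Seq was carried out on cells of the mouse AGM (aorta-gonad-mesonephros) with its vitelline and umbilical arteries (AGM+VU) at E11.5, in 4 groups of 2 libraries. Each library was made from 100 cells of a single embryo or of pooled embryos of the same genotype, over 2 sorting experiments. Hematopoietic clusters, the groups of round cells that bud from the arterial wall, were sorted as Ter119- VE-Cadherin+ c-Kit+, and endothelium as Ter119- VE-Cadherin+ Kit- CD41- CD45-. Each cell type was taken from wild type and from Sl/Sl embryos (labelled Kitl null). Sl/Sl embryos are homozygous for a deletion that removes Kitl, the gene of the ligand of the receptor Kit, in every cell of the embryo. Loss of Kitl cannot be told apart from loss of any other gene within the deletion. All 4 groups were dissected at the same stage, and embryos were kept on a C57BL/6 background. The comparisons ask whether genes of glucose use differ between the clusters and endothelium sorted from the same region. They also ask whether loss of Kitl is accompanied by a difference in either cell type.

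Glycolysis splits glucose into pyruvate and yields ATP without oxygen. Glucose enters through carriers such as GLUT1, the product of Slc2a1, and is trapped in the cell by hexokinases. The lower steps are shared with gluconeogenesis, while lactate dehydrogenase turns pyruvate into lactate and renews the NAD+ that the pathway needs. Many of these genes are known targets of the hypoxia-inducible factors, whose core DNA motif is ACGTG, and endothelial cells are known to take much of their ATP from glycolysis.

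In endothelium, the carrier gene Slc2a1 was 3.10-fold higher than in clusters, while the hexokinase gene Hk2 was 7.10-fold lower and Gpi1, the gene of the next enzyme, 1.74-fold lower (4 libraries of each cell type). The 250 bases before their transcription start are shown because they are the members that passed the test. Sequences are from RefSeq (table of build GRCm38.p6), placed by exact match on NCBIM37 (mm9), the build of the counts, at chr4:118781100-118781349 (plus strand) for Slc2a1, chr6:82724449-82724698 (minus strand) for Hk2 and chr7:35015356-35015605 (minus strand) for Gpi1. Each is written 5′ to 3′ on the strand of its gene, and capitals mark ACGTG or its reverse complement.
Slc2a1: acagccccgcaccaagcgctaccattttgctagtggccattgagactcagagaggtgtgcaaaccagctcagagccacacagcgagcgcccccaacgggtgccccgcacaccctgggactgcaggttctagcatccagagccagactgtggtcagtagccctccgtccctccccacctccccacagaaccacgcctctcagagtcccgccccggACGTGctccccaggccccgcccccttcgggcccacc
Hk2: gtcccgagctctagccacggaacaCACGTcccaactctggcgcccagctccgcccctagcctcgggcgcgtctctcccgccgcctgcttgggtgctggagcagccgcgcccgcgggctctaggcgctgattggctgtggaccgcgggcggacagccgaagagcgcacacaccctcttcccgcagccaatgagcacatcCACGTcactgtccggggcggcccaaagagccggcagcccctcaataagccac
Gpi1: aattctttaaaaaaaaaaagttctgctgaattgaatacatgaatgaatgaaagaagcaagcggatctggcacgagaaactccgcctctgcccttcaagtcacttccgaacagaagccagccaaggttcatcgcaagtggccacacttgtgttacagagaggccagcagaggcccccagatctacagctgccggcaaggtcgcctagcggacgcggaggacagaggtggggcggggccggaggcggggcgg

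Slc2a1 held 1 match, 31 bases before the start, Hk2 held 2, at 47 and 221 bases, and Gpi1 held 0. RefSeq promoters matched all 10 genes with 16 starts, of which 7 held ACGTG on either strand in these 250 bases. Starts 2 and 3 of Aldoa overlap and share the same match, so they are not independent. By gene, 6 of the 10 had at least 1 such start. Ldha was the member with the longer palindrome CACGTG, which holds ACGTG on both strands, and its 5 matches fell at 3 places. Over 32851 mouse promoters of the same length, 16.6% held ACGTG and 6.02% held CACGTG. These shares are per promoter and are not comparable with a count of genes. These matches describe letters, and binding was not measured.

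The libraries held between 8933236 and 13428214 counts, of which the 10 genes took 0.223% to 0.295% in clusters and 0.141% to 0.209% in endothelium. Levels are given as CPM (counts scaled to a common library total, adjusted by TMM factors), and as RPKM (per kilobase of exon) where genes are compared with each other. Counts of Kitl were 923 or more in endothelium of wild type embryos and at most 6 in endothelium of Sl/Sl embryos. All 10 endothelial markers were higher in endothelium (summed level 238 to 2295 CPM in clusters and 5339 to 6108 CPM in endothelium, with 0 markers at 0 in either). Of 10 hematopoietic markers, 8 were lower in endothelium and Cd34, which endothelium also expresses, was higher. The 10 include Kit, Itga2b (CD41) and Ptprc (CD45), whose proteins were sorted against in endothelium, so these are no independent check. Of 9 macrophage markers, 7 were lower in endothelium, with a summed level of 264 to 854 CPM in clusters and 6.91 to 34.9 CPM in endothelium. The 10 mesenchymal markers summed to 42.1 to 4877 CPM in clusters, the highest in Sl/Sl clusters replicate 2, and to 139 to 1631 CPM in endothelium. In the same library, 10 skeletal muscle markers summed to 605 CPM, against 13.2 to 72.8 CPM in the other cluster libraries. Some results are also given without that library, among them the genotype differences of Hk2, Aldoa and Ldha in clusters. A lower level in a bulk sample can come from fewer cells of a type or from less RNA per cell, and these cannot be told apart.

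Between cell types, 3 of the 10 genes passed the test over both genotypes (4 libraries against 4, edgeR's quasi-likelihood test, Benjamini-Hochberg adjusted p under 0.1 over all genes tested). One was higher in endothelium, where 8.48% of all tested genes passed, and 2 were lower, where 8.12% passed. The libraries of the 2 cell types did not overlap for the same 3 genes, 1 higher and 2 lower in endothelium, against a background of 10.1% higher and 9.57% lower among all tested genes. By the sign of the fitted difference, 9 of the 10 were lower in endothelium, and their median log2 difference was -0.48, against -0.07 over all tested genes. The summed level of the 10 genes was 2096 to 2898 CPM in clusters and 1464 to 2224 CPM in endothelium, so that the sums overlapped. The plot of levels by library shows the 3 separated genes beside the 7 whose cell types overlap.

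**Figure D1:**
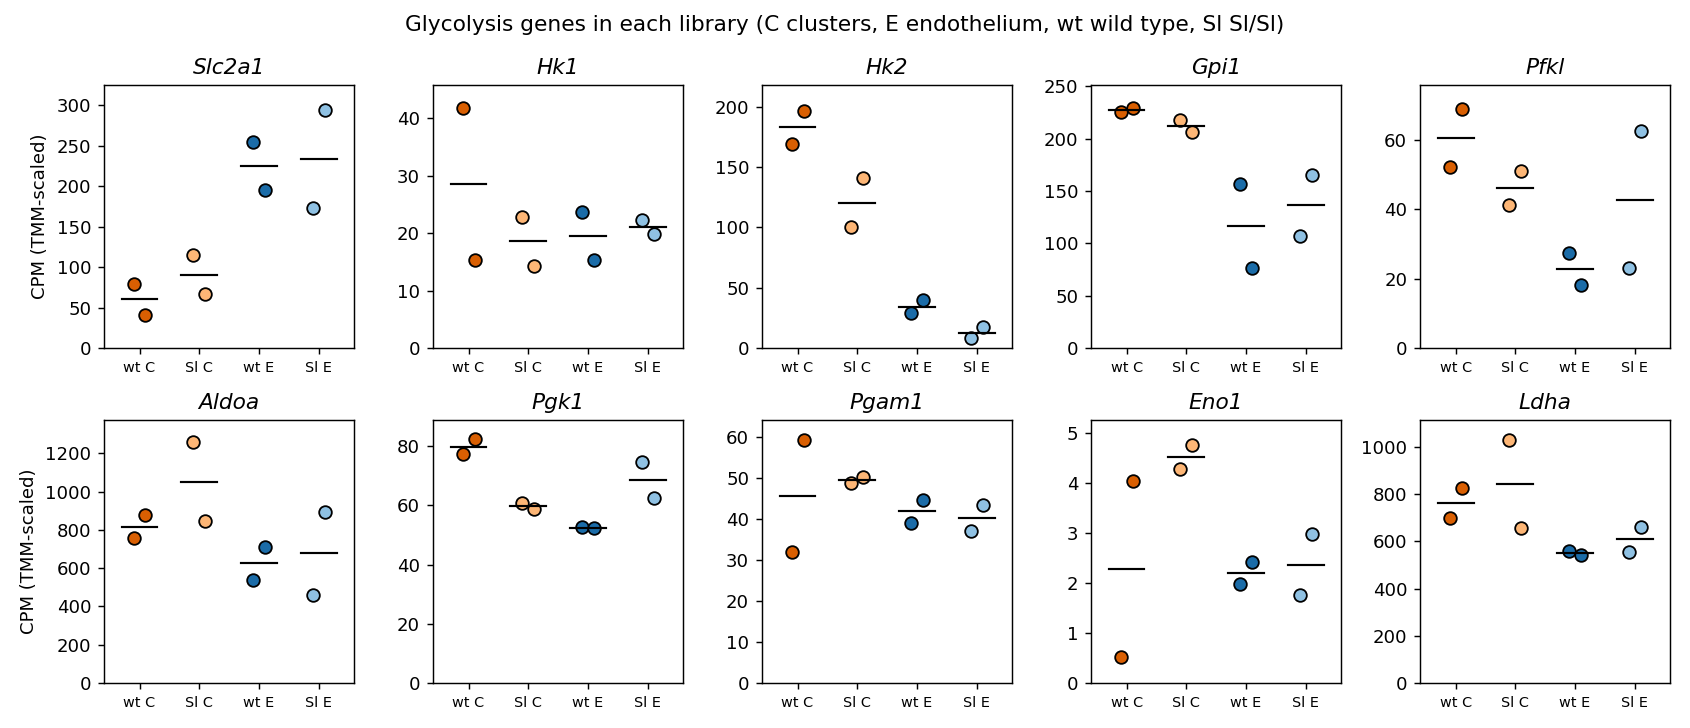
Level of each gene in each of the 8 libraries, in CPM with TMM-scaled library totals; points are libraries, lines are means of 2, and each panel has its own axis from 0. Slc2a1 lies between 173 and 294 CPM in the 4 endothelium libraries and between 41.2 and 115 CPM in clusters, and Hk2 lies between 8.31 and 40.1 CPM in endothelium and between 99.9 and 196 CPM in clusters.

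Slc2a1 (NCBIM37 chr4:118781350-118809934, plus strand, 10 exons) encodes GLUT1, the carrier that supplies glucose at a basal rate in many cells. It stood at 79.1 and 41.2 CPM in wild type clusters, 115 and 66.4 CPM in Sl/Sl clusters, 254 and 195 CPM in wild type endothelium, and 173 and 294 CPM in Sl/Sl endothelium. All 4 endothelium libraries lay above all 4 cluster libraries. The log2 difference, endothelium minus clusters, was 1.63 (SE 0.31) with an adjusted p of 0.0118 in edgeR's quasi-likelihood test. Among the 4 cluster libraries, those with more endothelial marker RNA had more Slc2a1. In the order wild type 1 and 2, Sl/Sl 1 and 2, the endothelial markers summed to 1006, 238, 2295 and 537 CPM, and the part of this RNA in the level of Slc2a1 was not tested.

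Slc2a3 encodes GLUT3, a carrier with high affinity for glucose that blood cells and neurons use, and its difference had the opposite sign. Its level was 22.8 to 85.2 CPM in clusters and 10.2 to 28.6 CPM in endothelium, with overlap between the 2 cell types. The log2 difference was -1.60 (SE 0.52, adjusted p 0.0854, edgeR's quasi-likelihood test), a call lost in 5 of the 8 fits that left out 1 library (adjusted p up to 0.335). Of the summed RPKM of both carriers, Slc2a1 made up 94.1% to 97.4% in endothelium and 42.7% to 84.2% in clusters. The lowest cluster share, 42.7%, was in wild type clusters replicate 2, the library with the lowest summed level of endothelial markers.

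Hk2 (chr6:82675021-82724448, minus strand, 18 exons) encodes an inducible hexokinase, and Hk1 (chr10:61731603-61842656, minus strand, 23 exons) the hexokinase that most tissues use at rest. Hk2 stood at 169 and 196 CPM in wild type clusters, 99.9 and 141 CPM in Sl/Sl clusters, 28.8 and 40.1 CPM in wild type endothelium, and 8.31 and 17.1 CPM in Sl/Sl endothelium. Every endothelium library lay below every cluster library. The log2 difference was -2.83 (SE 0.32) with an adjusted p of 9.72e-04 by edgeR's quasi-likelihood test, and Hk2 ranked 117 by p among all tested genes.

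Hk1 stood at 41.8 and 15.3 CPM in wild type clusters, 22.9 and 14.3 CPM in Sl/Sl clusters, 23.8 and 15.2 CPM in wild type endothelium, and 22.2 and 19.8 CPM in Sl/Sl endothelium. The cell types overlapped, and the log2 difference of -0.19 (SE 0.52) was smaller than its error. Of the summed RPKM of Hk1, Hk2 and Hk3, Hk2 held 75.3% to 91.2% in clusters and 23.3% to 68.3% in endothelium, where Hk1 held 31.7% to 76.3%. Hk3, a hexokinase of blood cells, held at most 3.65% in any library and did not pass the test.

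**Figure D2:**
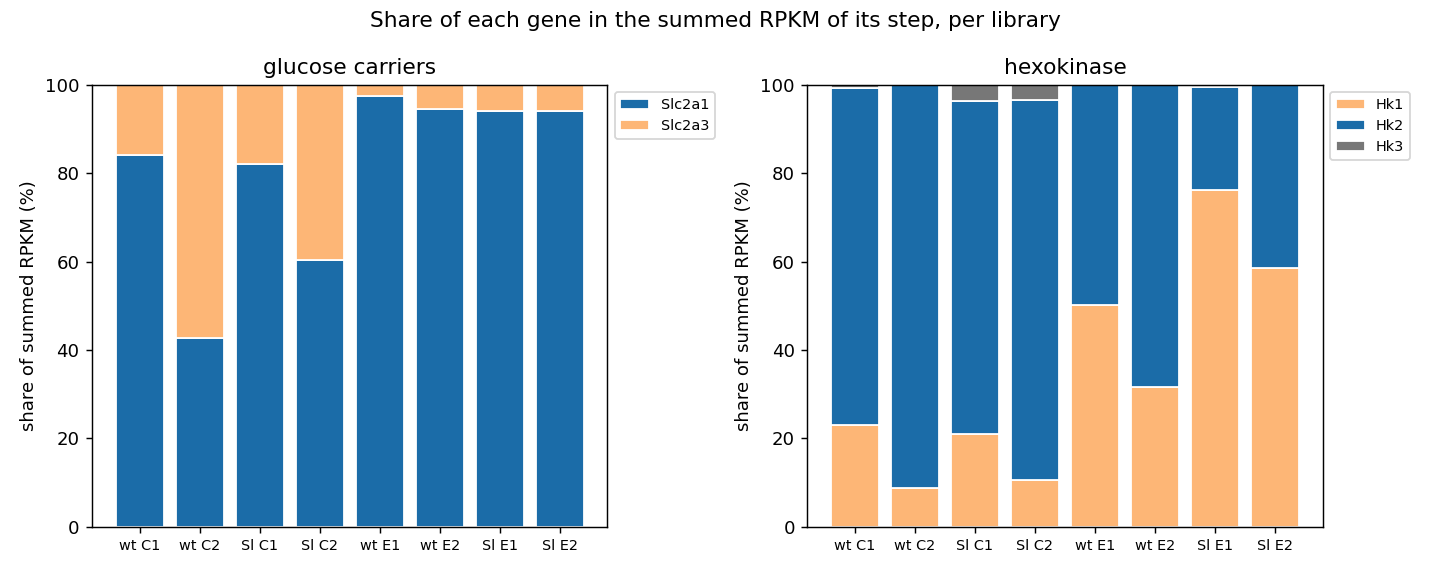
Share of each gene in the summed RPKM of its step, in percent, for the glucose carriers Slc2a1 and Slc2a3 and for the hexokinases Hk1, Hk2 and Hk3; each bar is 1 library (C clusters, E endothelium, wt wild type, Sl Sl/Sl, with the replicate number). Slc2a1 takes at least 94.1% in the 4 endothelium libraries, and Hk2 takes at least 75.3% in the 4 cluster libraries and at most 68.3% in endothelium.

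Gpi1 (chr7:34986346-35015355, minus strand, 18 exons) encodes glucose-6-phosphate isomerase, which turns glucose 6-phosphate into fructose 6-phosphate. It stood at 225 and 229 CPM in wild type clusters, 218 and 206 CPM in Sl/Sl clusters, 157 and 76.5 CPM in wild type endothelium, and 107 and 166 CPM in Sl/Sl endothelium. The 4 cluster libraries lay close together and above all endothelium libraries. The log2 difference was -0.80 (SE 0.26, adjusted p 0.0896, edgeR's quasi-likelihood test), which sits near the threshold. The gene no longer passed in 6 of the 8 edgeR fits that left out 1 library, namely any of the 4 cluster libraries, wild type endothelium replicate 2 or Sl/Sl endothelium replicate 1 (adjusted p from 0.128 to 0.215).

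Pfkl (chr10:77449694-77472541, minus strand, 22 exons) encodes the liver form of phosphofructokinase, the committed step of the pathway. Its level was 41.2 to 69.1 CPM in the 4 cluster libraries and 18.2, 23.0 and 27.5 CPM in 3 endothelium libraries, but 62.5 CPM in Sl/Sl endothelium replicate 2. That library put endothelium within the range of clusters, and the log2 difference was -0.76 (SE 0.41, adjusted p 0.271, edgeR's quasi-likelihood test). Pfkl made up 45.2% to 65.0% of the summed RPKM of Pfkl, Pfkm and Pfkp in clusters and 28.5% to 61.2% in endothelium, with no separation of the cell types.

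Aldoa and Ldha were the most abundant of the 10 genes per length of exon. Aldoa (chr7:133938748-133943961, minus strand) encodes aldolase A, which cleaves fructose 1,6-bisphosphate. It stood at 756 and 875 CPM in wild type clusters, 1258 and 847 CPM in Sl/Sl clusters, 539 and 712 CPM in wild type endothelium, and 461 and 894 CPM in Sl/Sl endothelium. Only the last of these reached the cluster range, and the log2 difference was -0.51 (SE 0.23, adjusted p 0.193, edgeR's quasi-likelihood test). Without Sl/Sl endothelium replicate 2 it was -0.80 with an adjusted p of 0.0380 in the same test.

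Ldha (chr7:54101174-54110997, plus strand) encodes the subunit of lactate dehydrogenase that favours the making of lactate. It stood at 697 and 827 CPM in wild type clusters, 1029 and 656 CPM in Sl/Sl clusters, 558 and 540 CPM in wild type endothelium, and 557 and 663 CPM in Sl/Sl endothelium. The groups overlapped by 1 library, Sl/Sl clusters replicate 2, which lay below the highest endothelium library. The log2 difference was -0.47 (SE 0.17, adjusted p 0.120) in edgeR's quasi-likelihood test, and -0.61 with an adjusted p of 0.0454 without that library, the one with the most mesenchymal and muscle marker RNA. DESeq2 gave -0.49 with an adjusted p of 0.0671. Of the summed RPKM of Ldha and Ldhb, Ldha held 64.3% to 81.8% in clusters and 63.4% to 88.1% in endothelium.

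Pgk1, Pgam1 and Eno1 encode the enzymes that lead from 1,3-bisphosphoglycerate to phosphoenolpyruvate, and their exon sequence recurs in the genome. Of all 75-base windows within their exons, the length of 1 read, 85.7% of Pgk1 (chrX:103382439-103399038, plus strand), 87.2% of Pgam1 (chr19:41986361-41993155, plus strand) and 74.1% of Eno1 (chr4:149611306-149622982, plus strand) were found more than once in NCBIM37. The same share was 9.57% for Gpi1, 5.46% for Ldha, 0.972% for Aldoa and 0 for Slc2a1, Hk1, Hk2 and Pfkl. How such reads were counted is not given in the sources used here, so the counts of Pgk1, Pgam1 and Eno1 are uncertain.

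Pgk1, whose enzyme makes the first ATP of the pathway, stood at 77.3 and 82.5 CPM in wild type clusters, 61.0 and 58.8 CPM in Sl/Sl clusters, 52.6 and 52.4 CPM in wild type endothelium, and 74.6 and 62.4 CPM in Sl/Sl endothelium. Pgam1, the gene of phosphoglycerate mutase, lay between 31.8 and 59.1 CPM in clusters and between 37.1 and 44.5 CPM in endothelium. The cell types overlapped for both genes, and the log2 difference was -0.21 for Pgk1 (SE 0.25) and for Pgam1 (SE 0.34).

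Eno1 encodes enolase 1, the enolase of most cells, but its counts were 6 and 52 for wild type clusters, 52 and 68 for Sl/Sl clusters, 25 and 24 for wild type endothelium, then 20 and 25 for Sl/Sl endothelium. These were the lowest counts of the 10 genes. In the exon table, 92.8% of the exon bases of Eno1 also belonged to exons of Eno1b. Eno1b, looked up after these counts were seen, had 163, 442, 682 and 503 counts in the 4 cluster libraries and 426, 354, 188 and 435 in the 4 endothelium libraries. Reads of both genes could not be told apart over the shared bases, and the log2 difference of Eno1 was -0.49 with an SE of 1.30, so a change of either sign was not detectable.

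**Figure D3:**
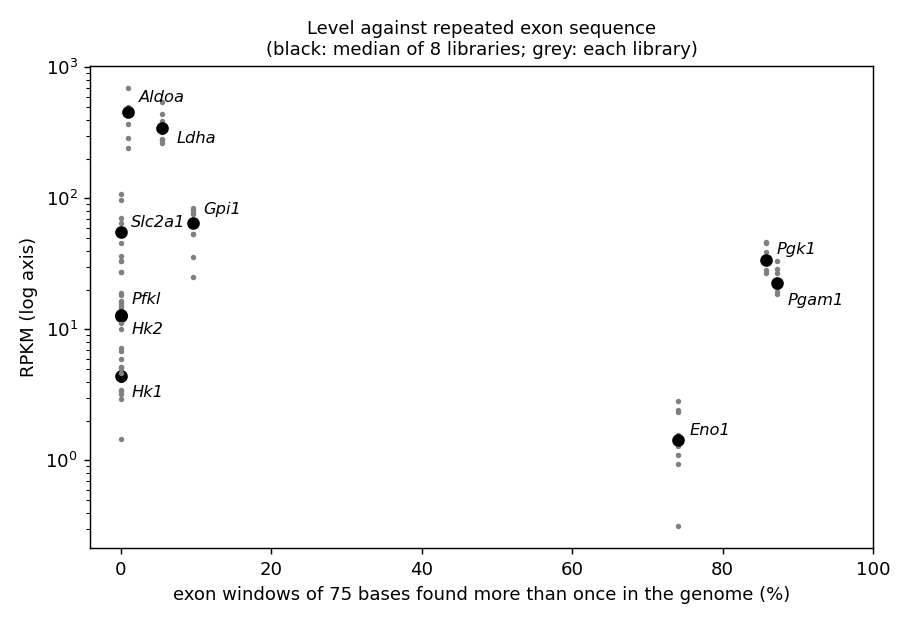
Level per length of exon (RPKM, log axis) against the share of 75-base exon windows that occur more than once in NCBIM37, in percent; black points are medians of 8 libraries and grey points single libraries. The 7 genes on the left have at most 9.57% repeated windows, and Eno1, Pgk1 and Pgam1 on the right have 74.1% to 87.2%.

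Per length of exon, the order of the 10 genes differed between the cell types. In clusters, Aldoa (447 to 701 RPKM) and Ldha (362 to 542 RPKM) led and overlapped each other, and Gpi1 followed at 76.1 to 84.0 RPKM. Below it, Pgk1, Slc2a1, Hk2 and Pgam1 overlapped between 16.4 and 46.2 RPKM, then came Pfkl (11.3 to 19.0 RPKM), Hk1 (at least 3.37 RPKM) and Eno1 (0.314 to 2.85 RPKM). In endothelium, Aldoa (242 to 461 RPKM) and Ldha (264 to 323 RPKM) again led and overlapped. Slc2a1 came next at 64.7 to 108 RPKM, above Gpi1 (at most 53.9 RPKM), which overlapped Pgk1 (27.1 to 39.3 RPKM). Hk2, at 1.45 to 6.86 RPKM in endothelium, overlapped Hk1 at 3.19 to 5.17 RPKM.

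Within each genotype, with 2 libraries against 2, Hk2 passed the test in both. In wild type, Slc2a1 was the 1 member that passed as higher in endothelium, with a log2 difference of 1.90 (SE 0.44, adjusted p 0.0457, edgeR's quasi-likelihood test), where 4.56% of all tested genes passed. It no longer passed without wild type clusters replicate 2 (adjusted p 0.186 by the same test) or without wild type endothelium replicate 1 (adjusted p 0.135). Hk2 was the 1 member lower in wild type endothelium (-2.41, SE 0.44, adjusted p 0.0186), where 3.68% of all tested genes passed. Gpi1, with an adjusted p of 0.199 in this edgeR fit, passed as well without the filter on low counts (adjusted p 0.0777) and in DESeq2 (adjusted p 0.0898). In Sl/Sl, Hk2 was again lower in endothelium (-3.25, SE 0.46, adjusted p 0.0117), where 1.84% of all tested genes passed. As higher in Sl/Sl endothelium, 0.985% of all tested genes passed and none of the 10 members did, with 2 members at an unadjusted p under 0.05 in either direction, where 14.4% of all tested genes were. For Slc2a1 the Sl/Sl difference was 1.36 (SE 0.44, adjusted p 0.197 in edgeR, 0.0439 in DESeq2). The differences of the 2 genotypes were not shown to differ, since in the test of interaction 0 of the 10 genes passed, as did 0% of all tested genes, with 0 members at an unadjusted p under 0.05 (5.28% of all tested genes) and 0 called in DESeq2 (1.30% of genes). For Hk2 the interaction was -0.84 (SE 0.60) and for Slc2a1 -0.54 (SE 0.61) on the log2 scale.

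Between genotypes, none of the 10 genes passed the test in either cell type, and Hk2 was the member with the smallest p in both endothelium and clusters. In clusters, 0% of all tested genes passed edgeR's quasi-likelihood test, and 0 members had an unadjusted p under 0.05, where 4.22% of all tested genes did. DESeq2 called 0 members and 1.36% of the genes to which it gave an adjusted p. In endothelium, 0% of all tested genes passed edgeR's test, and 1 member had an unadjusted p under 0.05, where 4.16% of all tested genes did. There DESeq2 called 0 members and 1.35% of the genes. The 10 genes divided as 5 up and 5 down in Sl/Sl clusters (median log2 difference 0.01, against 0.03 over all tested genes) and as 8 up and 2 down in Sl/Sl endothelium (median 0.11, against -0.0015 over all tested genes). In clusters, the libraries of the 2 genotypes did not overlap for 4 members lower in Sl/Sl (Hk2, Gpi1, Pfkl and Pgk1), where 16.2% of all tested genes were so placed, and for 1 higher (Eno1), where 16.4% were. In endothelium, they did not overlap for 1 member lower in Sl/Sl (Hk2, background 14.9%) and 1 higher (Pgk1, background 13.5%). An exact permutation test of 2 libraries against 2 cannot give a p below 0.333, and one of 4 against 4 cannot go below 0.0286.

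**Figure D4:**
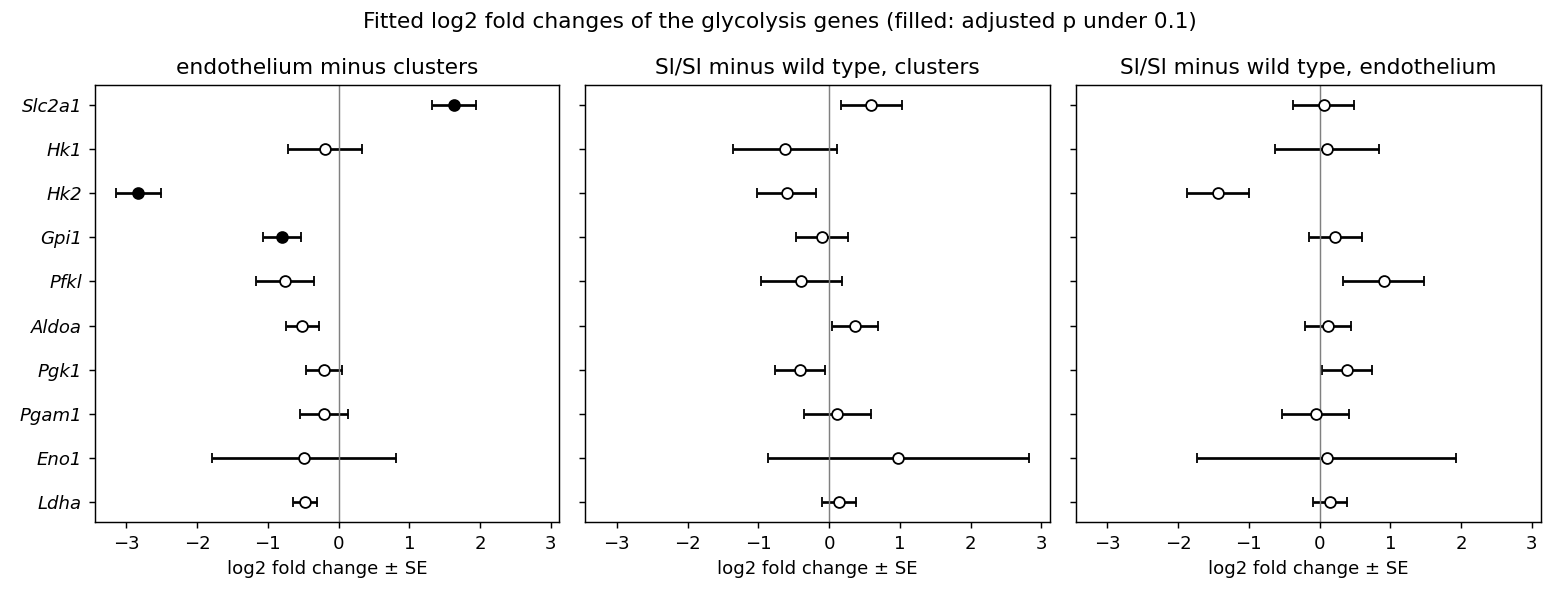
Fitted log2 fold change of each gene with its standard error, for endothelium minus clusters over both genotypes and for Sl/Sl minus wild type within clusters and within endothelium; filled points have an adjusted p under 0.1. Slc2a1 (1.63), Hk2 (-2.83) and Gpi1 (-0.80) are filled on the left, and no point is filled in the 2 genotype panels, where Hk2 in endothelium (-1.44) lies farthest from 0.

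Both Sl/Sl groups lay below the wild type group of the same cell type in Hk2, without overlap of the libraries, but the difference did not pass the test. The log2 difference, Sl/Sl minus wild type, was -1.44 in endothelium (SE 0.43, unadjusted p 0.00875, adjusted p 1 in edgeR and 0.152 in DESeq2) and -0.60 in clusters (SE 0.42, adjusted p 1). The mean of both differences, a comparison added after these values were seen, was -1.02 (SE 0.30, unadjusted p 0.00786 and adjusted p 0.998 in edgeR, adjusted p 0.169 in DESeq2), with 0% of all tested genes called in edgeR. Leaving out 1 library at a time moved this mean from -0.80 to -1.32. For clusters alone, the difference was -0.87 without Sl/Sl clusters replicate 2 and -0.37 without Sl/Sl clusters replicate 1. In Sl/Sl endothelium, 7 of 10 hematopoietic markers were lower by sign and 3 higher (median log2 difference -0.16, 2 at an unadjusted p under 0.05). They ran from Spi1 (-2.25), with Myb at -1.39, up to 1.22. Of 9 macrophage markers, 3 were lower, among them Lyz2 (-2.30) and Cd68 (-1.26), and 6 higher, up to 4.18 (median 0.64). Libraries of the 2 genotypes did not overlap for 4 hematopoietic markers lower and 2 higher in Sl/Sl endothelium. The same held for 2 macrophage markers lower and 0 higher. Of all tested genes, 14.9% were so placed as lower and 13.5% as higher. The summed level of the hematopoietic markers was 1229 and 1272 CPM in wild type and 1201 and 1288 CPM in Sl/Sl endothelium. That of the macrophage markers reached 34.9 CPM in wild type and 20.2 CPM in Sl/Sl endothelium, and the genotypes overlapped in both sums. The hematopoietic sum includes Cd34, the 1 marker higher in endothelium than in clusters (log2 difference 1.16). It therefore does not give the level of the other markers. Ptprc, another of them, stood at 1.27 and 0.606 CPM in wild type and 0.700 and 0.834 CPM in Sl/Sl endothelium. In Sl/Sl clusters, 9 of 10 endothelial markers were higher by sign (median 1.00), but the libraries of the 2 genotypes overlapped for all 10. Hk2 is a gene that was low in endothelium. The part of any of these markers in the level of Hk2 was not tested. The hexokinase share of Hk2 in Sl/Sl endothelium was 23.3% and 41.5%, below the 49.8% and 68.3% of wild type endothelium.

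Among the other members, Pgk1 differed between genotypes by -0.42 (SE 0.35) in clusters and by 0.38 (SE 0.35) in endothelium on the log2 scale, each without overlap of the libraries. Leaving out 1 library at a time gave -0.46 to -0.38 in clusters and 0.25 to 0.50 in endothelium. Slc2a1 differed by 0.60 (SE 0.43) in clusters, with a range of 0.14 to 1.14 in the fits that left out 1 library. Of the 10 endothelial markers, 9 were higher by sign in Sl/Sl clusters (median log2 difference 1.00, 4 at an unadjusted p under 0.05). The libraries of the 2 genotypes overlapped for all 10, and the part of these markers in the level of Slc2a1 was not tested. In endothelium Slc2a1 differed by 0.06 (SE 0.43), with a sign that turned in 2 of the 8 fits that left out 1 library. Pfkl differed by 0.90 (SE 0.58) in endothelium, and by 0.00 without Sl/Sl endothelium replicate 2. The narrowest intervals were those of Ldha, at 0.14 (SE 0.24) in clusters and 0.15 (SE 0.24) in endothelium, followed by Aldoa at 0.37 (SE 0.32) and 0.11 (SE 0.32). Without Sl/Sl clusters replicate 2, the cluster differences were 0.44 for Ldha and 0.63 for Aldoa. Without Sl/Sl clusters replicate 1 they were -0.21 and 0.06.

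The other genes of the pathway were described from lists. Of 21 other glycolysis genes in the table, 15 were tested, and 4 were lower in endothelium over both genotypes, namely Slc2a3, Tpi1, Aldoc and Eno3. No others were called, and the median log2 difference over the 15 was -0.87. Of all tested genes, 8.12% were called lower in endothelium and 8.48% higher. Tpi1, the gene of triosephosphate isomerase, stood at 364 to 604 CPM in clusters and 209 to 393 CPM in endothelium (-0.87, SE 0.25, adjusted p 0.0563, edgeR's quasi-likelihood test). Aldoc, a brain aldolase, had 8, 127, 52 and 63 counts in clusters and 0, 0, 0 and 1 in endothelium. Eno3, the muscle enolase, had 7, 275, 45 and 563 counts in clusters and 7, 0, 11 and 3 in endothelium (adjusted p 0.0744, edgeR's quasi-likelihood test). Its cluster counts were highest in the library with the most muscle marker RNA, whose part in the result was not tested.

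Pkm, the gene of muscle pyruvate kinase, stood at 238 to 311 CPM in clusters and 222 to 258 CPM in endothelium, with overlap and a log2 difference of -0.27 (SE 0.16). Gapdh, often used as a reference gene, had 49 to 195 counts in clusters and 80 to 299 in endothelium. Of its exon windows, 84.2% recur in the genome, so its counts are uncertain in the same way as those of Pgk1, Pgam1 and Eno1. The same share was 23.6% for Pkm, 17.6% for Tpi1 and 21.8% for Ldhb, so part of their counts is uncertain as well.

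Among 22 genes that set the flux of the pathway or handle pyruvate and lactate, 21 were tested and 2 were lower in endothelium. The background for a lower call was 8.12% of all tested genes, and the median log2 difference of the list was -0.29. Slc16a7 encodes MCT2, a carrier of lactate and pyruvate, and had 160, 225, 238 and 112 counts in clusters against 0, 1, 2 and 0 in endothelium (adjusted p 0.0103, edgeR's quasi-likelihood test). Pdk3, a kinase that switches off pyruvate dehydrogenase, stood at 61.5 to 163 CPM in clusters and 31.6 to 85.1 CPM in endothelium (-1.14, SE 0.36, adjusted p 0.0810, edgeR's quasi-likelihood test). All 8 genes of the pentose phosphate pathway, which branches off at glucose 6-phosphate, were tested, with a median of -0.62. Against the same background of 8.12%, 1 was lower in endothelium, Taldo1 (-0.62, SE 0.21, adjusted p 0.0931, edgeR's quasi-likelihood test). Of 7 gluconeogenesis genes, 4 were tested with a median of -0.39, and in edgeR 0 passed and 0 had an unadjusted p under 0.05.

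Of the 11 genes called in all the lists together, hypoxia genes included, Slc16a7 passed in each of the 8 edgeR fits that left out 1 library, and the other 10 lost their call in 1 to 8 of these fits, with no change of sign. Slc2a3 lost it without replicate 2 of either cluster group, either wild type endothelium library or Sl/Sl endothelium replicate 1. Tpi1 lost it in 4 (wild type clusters replicate 2, Sl/Sl clusters replicate 1 and replicate 1 of both endothelium groups) and Pdk3 in 4 (replicate 1 of each group). Eno3 lost it in 5 (replicate 2 of each group and Sl/Sl endothelium replicate 1), while Aldoc and Taldo1 each kept it in 1 of 8, the fit without wild type clusters replicate 1.

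Of 23 hypoxia factors and targets outside glycolysis, all tested, 4 were higher in endothelium and no others passed, with a median of 0.22. Of all tested genes, 8.48% were called higher in endothelium. Epas1, which encodes the factor HIF-2α and is known from endothelium, stood at 62.7, 0.311, 69.7 and 15.8 CPM in clusters and 349, 238, 448 and 212 CPM in endothelium (3.09, SE 1.03, adjusted p 0.0938, edgeR's quasi-likelihood test). Vegfa, the endothelial growth factor, stood at 2.87 to 9.83 CPM in clusters and 18.3 to 28.0 CPM in endothelium (1.88, SE 0.61, adjusted p 0.0872 in the same test). Adm, the gene of the vessel peptide adrenomedullin, had a difference of 4.21 (SE 1.30, adjusted p 0.0729) and Hilpda, a lipid droplet gene, one of 0.76 (SE 0.25, adjusted p 0.0868), both by edgeR's quasi-likelihood test. The libraries of these 4 genes did not overlap between the cell types. With 1 library left out, Vegfa lost its call in all 8 edgeR fits (adjusted p 0.113 to 0.257) and Hilpda in 7, all but that without Sl/Sl endothelium replicate 2. Epas1 lost it in 3 (Sl/Sl clusters replicate 2 or replicate 1 of either endothelium group) and Adm in 1, without Sl/Sl endothelium replicate 2 (adjusted p 0.209 in edgeR). Hif1a, which encodes HIF-1α, lay at 118 to 174 CPM in clusters and 118 to 182 CPM in endothelium, with a log2 difference of -0.04 (SE 0.21).

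**Figure D5:**
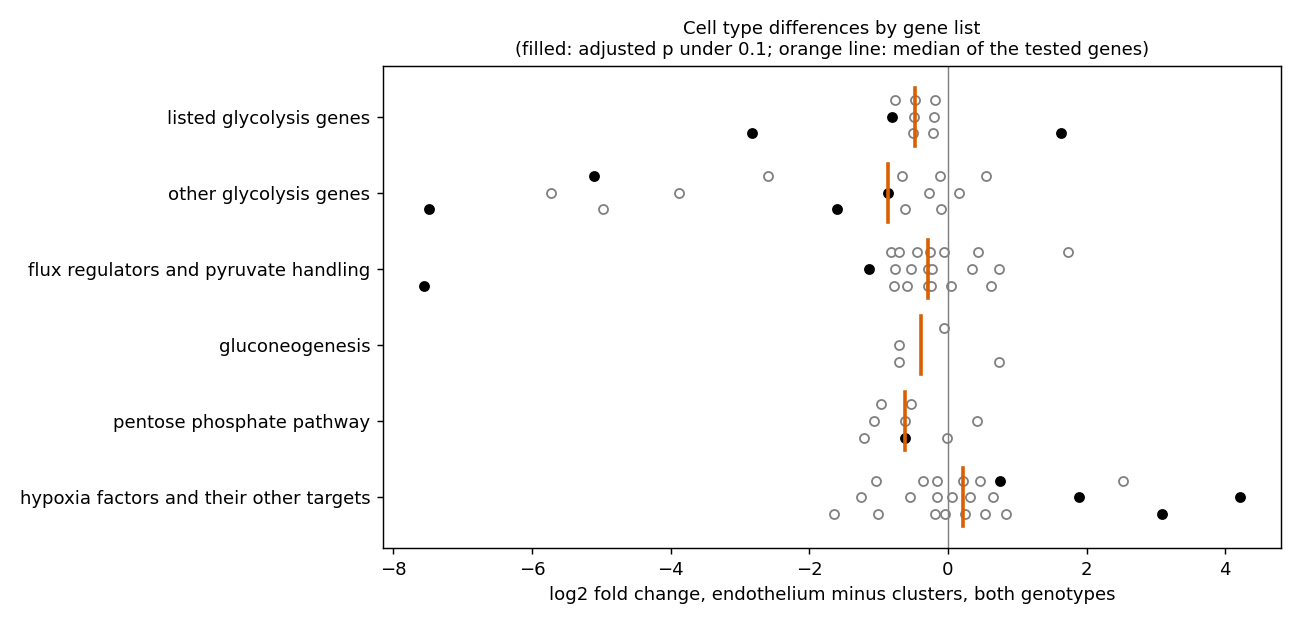
Log2 fold change, endothelium minus clusters over both genotypes, of every tested gene of 6 lists; each point is 1 gene, filled where the adjusted p is under 0.1, and the orange line is the median of the tested genes of the list. The called glycolysis genes lie below 0 except Slc2a1, and the 4 called hypoxia genes lie above 0.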

How the data were processed

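Per the submitters' processing notes and the methods, the authors prepared Smart-seq2 libraries, which carry no molecular identifiers, aligned read pairs of 75 bases to mm9 with STAR 2.4.2a and counted them with featureCounts of Subread 1.4.5. Per gene, the table as deposited holds raw counts beside exon coordinates and lengths. The authors tested with DESeq2 1.12.4 at a threshold of 0.1. Annotation, strand setting and multi-mapping handling are not given in the sources used here. Intervals from counts would cover counting error only.

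All 8 libraries were fitted together in edgeR 4.0.16 (R 4.3.3) with 4 groups taken from the sample titles, TMM factors, filterByExpr and the quasi-likelihood test, Benjamini-Hochberg adjusted over 13908 genes, with a threshold of 0.1 as in the methods. CPM used TMM-scaled totals and RPKM plain totals. The paper calls the libraries biological replicates, but whether those of a group came from separate pools is not stated. The p-values measure the spread between these samples. The members and lists were chosen with earlier results of these data known. All members were named, and of the other lists the genes that passed (up to 8 per list and comparison), the main isozymes and partner isozymes. Exon windows of 75 bases were searched on both strands of NCBIM37, and all exons of the members share an end with an exon of GENCODE M1. Alternatives were RLE factors, no filter, a minimum of 10 counts in every library, DESeq2 1.42.0, a threshold of 0.05, the replicate number as a block, edgeR on 4 libraries and leaving out each library. The fit was also run on simulated data, but how often it misses a difference at the spread of these libraries was not tested.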

Additional observations from a re-analysis of the deposited data

Results flagged for a closer look

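Pgk1 was picked out because its libraries moved in opposite directions with genotype in the 2 cell types. Both Sl/Sl cluster libraries (61.0 and 58.8 CPM) lay below both wild type cluster libraries (77.3 and 82.5 CPM), and both Sl/Sl endothelium libraries (74.6 and 62.4 CPM) lay above both wild type endothelium libraries (52.6 and 52.4 CPM). The log2 difference between the genotype differences, endothelium minus clusters, was 0.80 (SE 0.50) with an unadjusted p of 0.142 and an adjusted p of 0.940 in edgeR's quasi-likelihood test, so it did not pass. Of all tested genes, 16.2% lay without overlap lower in Sl/Sl clusters and 13.5% higher in Sl/Sl endothelium. The share of genes with both was not counted. Of the 75-base exon windows of Pgk1, 85.7% recur in the genome.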

How the results depend on the processing

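Slc2a1 and Hk2 kept their call over both genotypes under every alternative run. Without a filter on low counts, 5 members were called over both genotypes (Aldoa and Ldha in addition), 3 in wild type (Gpi1 in addition) and 2 in Sl/Sl (Slc2a1 in addition). DESeq2 gave the same calls within each genotype, and over both genotypes it called 4 members (Ldha in addition), as did the minimum of 10 counts in every library. Over all genes, the adjusted p threshold of 0.05 left 1488 calls over both genotypes, 657 in wild type and 222 in Sl/Sl, where the threshold of 0.1 gave 2310, 1146 and 393. Without the filter, 1990 genes were called in wild type, 1266 in Sl/Sl, 253 between genotypes in clusters, 65 in endothelium and 179 for the interaction. DESeq2 called 3614 over both genotypes, 2613 in wild type, 1631 in Sl/Sl, 175 between genotypes in clusters, 178 in endothelium and 175 for the interaction. Between genotypes in clusters, at least 10 counts in every library gave 9 calls. The cause of these differences was not tested.

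With the replicate number as a block, 8 genes were called between genotypes in clusters and Gpi1 lost its call (adjusted p 0.103). It changed no other call of a member, and ended those of Eno3 (0.236), Hilpda (0.111), Pdk3 (0.107) and Vegfa (0.121) by adjusted p. Whether the replicate numbers follow the sorting experiments is not given in the sources used here. The correlations of the deviations of same-numbered libraries ran from -0.10 to 0.15, with 3 of 6 above 0. With 2 libraries a group, these correlations cannot show whether the numbers pair the samples.

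Leaving out 1 library at a time gave 2 to 4 members called over both genotypes, 1 to 2 in wild type (1 without wild type clusters replicate 2) and 1 in Sl/Sl. Over all genes it gave 1563 to 2087 calls over both genotypes, 592 (without wild type clusters replicate 2) to 1329 in wild type, and 182 (without Sl/Sl clusters replicate 2) to 633 (without wild type clusters replicate 1) in Sl/Sl. It gave 6 to 76 calls between genotypes in clusters, 0 to 1 in endothelium and 0 to 27 for the interaction. Signs turned for uncalled differences. Between cell types the log2 difference ran from -0.49 to 0.26 for Hk1, from -0.40 to 0.017 for Pgam1 and from -0.90 to 0.54 for Eno1. Between genotypes in clusters it ran from -1.18 to 0.28 for Hk1, from -0.26 to 0.63 for Pgam1 and from -0.21 to 0.44 for Ldha. Between genotypes in endothelium it ran from -0.38 to 0.39 for Slc2a1, from -0.16 to 0.46 for Hk1, from -0.18 to 0.83 for Gpi1, from -0.45 to 0.52 for Aldoa, from -0.18 to 0.060 for Pgam1 and from -0.34 to 0.44 for Eno1. With 2 libraries a group, no genotype difference of a member, Hk2 included, passed the test.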
